A study of Mus musculus with 6 samples.

Results

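The Bach2 locus is described here as 80 accessible regions out of 81315 found in mouse CD4 T cells by ATAC-seq, an assay that reads open DNA from where the Tn5 transposase can cut and tag it. The groups were Naive CD4+ T cells of C57BL/6 mice left untreated, the same kind of cells after 48 h of Th17 culture, and cells after 72 h of Th17 culture. Th17 culture used 0.25 μg/mL anti-CD3ε and 1 μg/mL anti-CD28 on a coated plate with 0.1 ng/mL TGF-β and 20 ng/mL IL-6, so the culture differs from the Naive group in T cell receptor stimulation, costimulation, cytokines and time at once. No Th17-free stimulated culture is among the groups analysed here, and no group carries a genetic change according to its labels. Each group has 2 libraries, labelled as independent biological replicates, but 1 peak list per group was analysed, so no difference has a replicate check and no p-value is given.

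Peaks from the 3 lists were merged into regions wherever they had 1 bp or more in common. The members were chosen by peak presence and position: they are the regions that overlapped the RefSeq body of Bach2 (gene ID 12014, GRCm38 chromosome 4 from 32238413 to 32586109, 347.7 kb) or the 50 kb on either side. A region is called present in a group when a peak of that group's list lay in it, lost when it was present only in the earlier list of a pair and gained when it was present only in the later one. These presence calls chose the members and are given as a description. Absence from a list means only that the authors' procedure kept no peak there, and it does not show closed chromatin. The window edge cut through no region. The outermost member lay 22.3 kb before the gene and the nearest region outside 58.3 kb before it, and past the gene's other end the outermost member lay at 28.8 kb and the nearest region outside at 65.7 kb.

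BACH2 is a basic leucine zipper protein with a BTB domain that pairs with small Maf proteins and binds DNA elements that AP-1 factors also use. It is known mainly as a repressor. In mouse CD4 T cells it restrains effector programmes and favours naive, memory and regulatory states, and in B cells it restrains Prdm1 and plasma cell formation. The long gene body of Bach2 is known as a dense stretch of T cell enhancers.

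RefSeq sequence is shown for 2 of the start sites tabulated in the window, chosen because the lists treat them in opposite ways. The first is the tabulated Bach2 start on the + strand, 179.0 kb inside the gene body, of which the 250 bases before the start are chr4:32417185-32417434, GRCm38.p6. No peak of any list overlapped its window, and the nearest regions ended 3.87 kb before and began 6.24 kb after it. This window is not the 5′ end of the gene body, which overlapped a region of all 3 lists. Like this window, the tabulated starts of Gja10 and Bach2os, not shown, overlapped no region. The second is the start of Casp8ap2 on the + strand, chr4:32615220-32615469, whose window lay wholly inside the member region with the highest score of the locus. Both are 5′ to 3′, and capitals mark a match to TTCNNNGAA, the spaced palindrome bound by STAT factors.
Bach2 internal start: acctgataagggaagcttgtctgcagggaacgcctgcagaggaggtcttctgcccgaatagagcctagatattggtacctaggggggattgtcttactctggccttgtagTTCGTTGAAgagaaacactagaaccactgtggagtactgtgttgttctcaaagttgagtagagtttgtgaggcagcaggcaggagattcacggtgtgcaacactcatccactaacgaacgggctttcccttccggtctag
Casp8ap2 start: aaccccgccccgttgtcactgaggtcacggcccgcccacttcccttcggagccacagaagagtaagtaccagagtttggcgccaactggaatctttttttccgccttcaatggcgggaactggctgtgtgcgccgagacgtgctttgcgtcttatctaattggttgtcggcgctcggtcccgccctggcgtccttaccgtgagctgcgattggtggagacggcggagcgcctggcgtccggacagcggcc

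The Bach2 sequence had a G and C content of 50.4% and 7 CG pairs, that of Casp8ap2 62.0% and 25 CG pairs, and the median of all 21263 tabulated windows of protein-coding genes was 55.6% and 10. A match to TTCNNNGAA on either strand stood in 6.58% of those windows. Neither sequence matched TGANTCA (the AP-1 element, in 6.13% of windows), TGTGGTT (a RUNX element, in 3.82%), CTTTGAT (a TCF and LEF element, in 2.82%), the AP-1 and IRF composite element (in 0.0611%) or the long Maf recognition element (in 0 windows), both of which contain TGANTCA. A match is a run of letters and not a bound site. Of all these windows 54.3% overlapped a region of at least 1 list.

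Bach2 was among the protein-coding genes with the most regions in every list. Its window held 54 regions in Naive cells, 31 at 48 h and 45 at 72 h, where the median over 21887 protein-coding gene windows was 5, 4 and 5. In each list 1 gene window, that of Foxp1, a factor of T cell quiescence, held more, and at 72 h Itpr1, a calcium channel gene, tied with Bach2. Long genes collect regions by length, so density was also compared. Among the 557 protein-coding genes of at least 300 kb, the Bach2 window had 17.9 regions per 100 kb over the 3 lists, against a median of 1.06, and no other gene was higher. Its density was 12.1 per 100 kb in Naive cells, 6.92 at 48 h and 10.1 at 72 h, and 1 gene was higher at 72 h. The covered length was 15875 bp in Naive cells, 9646 bp at 48 h and 13521 bp at 72 h.

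**Figure D1:**
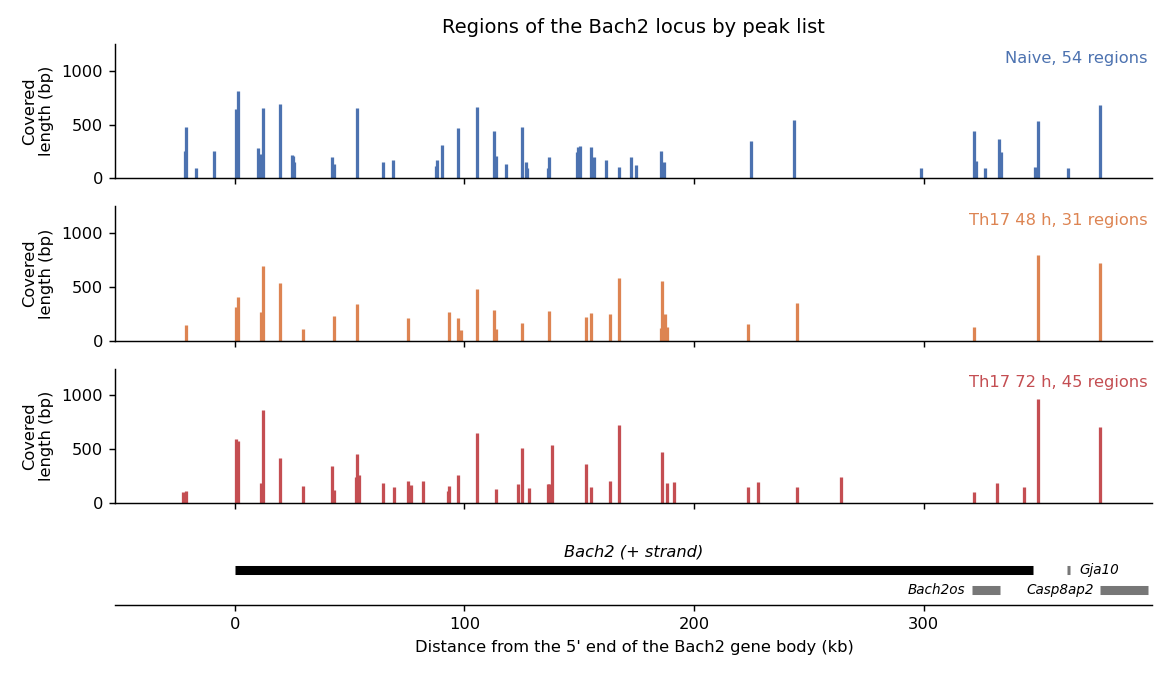
Each vertical line is a region of the Bach2 window at the distance of its middle from the 5′ end of the gene body (kb), and its height is the length in bp covered by peaks of that list. The 54 Naive, 31 48 h and 45 72 h regions crowd into the 5′ part of the gene, and the stretch from 264.2 to 298.9 kb has none in any list.

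By presence, naive-only regions were the most numerous class at Bach2, with 31 of 80 (38.75%). They were also the most numerous class in the whole series, with 28.8% of all 81315 regions. Regions present in all 3 lists numbered 18 (22.5%, against 25.6% in the whole series). Another 15 regions (18.75%, against 18.3%) were seen at 72 h only and 9 (11.25%, against 13.1%) were seen at both culture times while absent from Naive cells. The remaining classes held 3 regions in the Naive and 72 h lists but not the 48 h list, 2 at 48 h only and 2 in the Naive and 48 h lists but not the 72 h list.

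**Figure D2:**
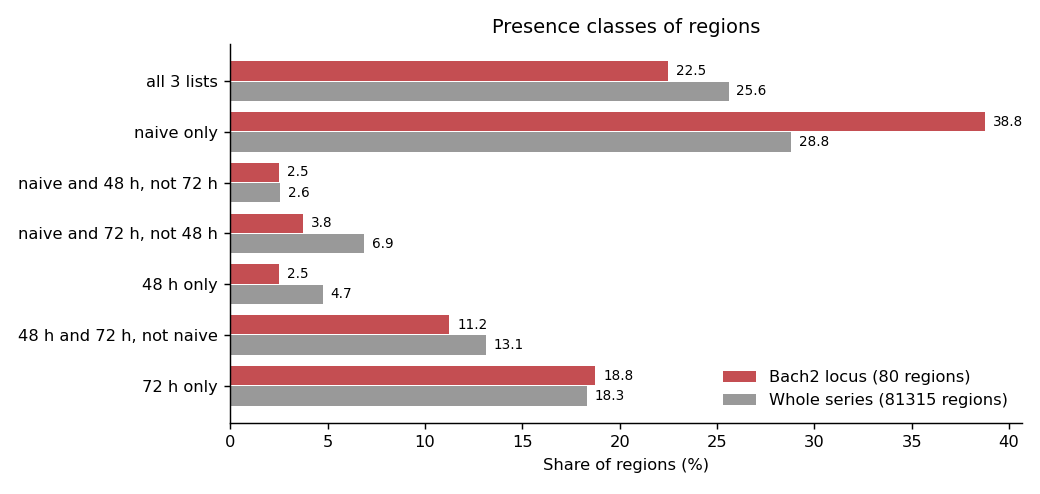
Bars give the share of regions (%) in each presence class for the Bach2 locus (80 regions, upper bar) and the whole series (81315 regions, lower bar). The naive-only share is 38.75% at Bach2 and 28.8% in the whole series, and the 72 h only shares are 18.75% and 18.3%.

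The comparison of 48 h with Naive cells asks how the locus differs early in Th17 culture. At 48 h, Bach2 had 31 regions, against 54 in Naive cells, with 11 gained, 34 lost and 20 shared. Of the Naive regions of the locus 63.0% were lost (exact 95% binomial interval 48.7 to 75.7%, counting error only), beside 55.9% over all Naive regions. Of the 48 h regions of the locus 35.5% were gained (19.2 to 54.6%), beside 38.8% over all 48 h regions. Both shares of the whole series lie inside the intervals of the locus, which are wide and treat neighbouring regions as independent. The number of changes at Bach2 is large, but whether its rate differs from the background cannot be told from these counts. The 48 h list is the shortest, and with the same number of the widest peaks taken from each list Bach2 had 13 gained and 19 lost. With peaks no narrower than their list's median it had 8 gained and 11 lost. The shares of the whole series were not recomputed under these settings.

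The comparison of 72 h with Naive cells uses the same Naive list, so a site that this list lacks can count as gained at either time. At 72 h, Bach2 had 45 regions, against 54 in Naive cells, with 24 gained, 33 lost and 21 shared. The lost share was 61.1% (46.9 to 74.1%), beside a background of 49.2%, and the gained share was 53.3% (37.9 to 68.3%), beside 49.2%. The background again lies inside both intervals, which have the same limit. Only Foxp1 lost more regions, with 51, and only Itpr1 and Dlg2 gained more, with 26 and 25, while Atxn1 tied at 24. The counts fell to 8 gained and 11 lost with peaks at or above the median width.

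Between the culture times, the 72 h list had 45 regions at Bach2, against 31 at 48 h, with 18 gained, 4 lost and 27 shared. The lost share of 12.9% (3.63 to 29.8%) and the gained share of 40.0% (25.7 to 55.7%) stand beside 15.9% and 39.4% in the whole series. Of the 8 alternatives run, 6 kept the excess of gains and 2 removed most or all of it. With equal numbers of peaks there were 13 gained and 12 lost, and with peaks at or above the median width 8 gained and 8 lost.

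Other loci of naive T cell factors are set beside Bach2 without a test. At 72 h against Naive cells, Foxp1 had 20 gained and 51 lost regions, Lef1, a TCF-family factor, had 7 gained and 21 lost, and Satb1, a chromatin organiser, had 1 gained and 17 lost. Their gained shares of the 72 h regions were 42.6%, 33.3% and 12.5%, beside 53.3% at Bach2 and 49.2% in the whole series. The intervals were wide (28.3 to 57.8%, 14.6 to 57.0% and 0.316 to 52.7%) and overlapped that of Bach2. Bach2 did not have the highest gained share at 48 h. There it was 35.5%, beside 35.3% at Foxp1, 47.1% at Lef1 and 14.3% at Satb1. The lost share at 72 h was 65.4% at Foxp1 and 70.8% at Satb1, above 61.1% at Bach2. That of Lef1 (21 of 35 Naive regions) was slightly below it.

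**Figure D3:**
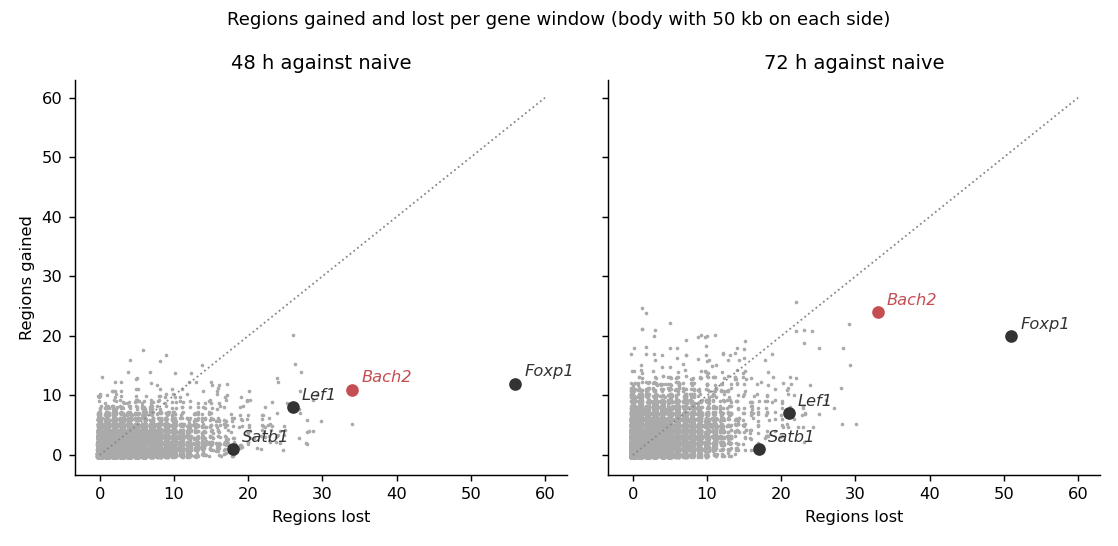
Each grey point is a protein-coding gene window, placed by its number of lost regions (x axis) and gained regions (y axis), with a small random shift to part overlapping points, at 48 h (left) and 72 h (right) against Naive cells. The dotted line marks equal numbers. Bach2 lies at 34 lost and 11 gained at 48 h and at 33 lost and 24 gained at 72 h.

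The regions were unevenly spread along the gene. In the first 173.8 kb of the gene body there were 50 regions, with 35 in Naive cells, 21 at 48 h and 31 at 72 h. In the second 173.8 kb there were 21, with 11 in Naive cells, 7 at 48 h and 10 at 72 h. Of the regions in all 3 lists, 14 lay in the first stretch and 1 in the second. Naive-only regions were 17 and 9, regions of both culture times absent from Naive cells 5 and 4, and regions at 72 h only 9 and 5. The flanks held 5 regions before the gene and 4 after it.

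In bins of 50 kb, the stretch from 0 to 50 kb held 6 regions of all 3 lists and no region seen at 72 h only. The next bin, from 50 to 100 kb, held 6 regions at 72 h only and 7 Naive regions, and 11 regions in all were present there at 72 h, against 5 at 48 h. The bin from 150 to 200 kb held 4 of the 9 regions of both culture times that were absent from Naive cells, together with 6 naive-only regions. From 250 to 300 kb there were 2 regions, a naive-only one and one at 72 h only. The longest stretch of the gene body without a region ran 55.2 kb in Naive cells, 77.0 kb at 48 h and 57.7 kb at 72 h, always toward the 3′ end.

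**Figure D4:**
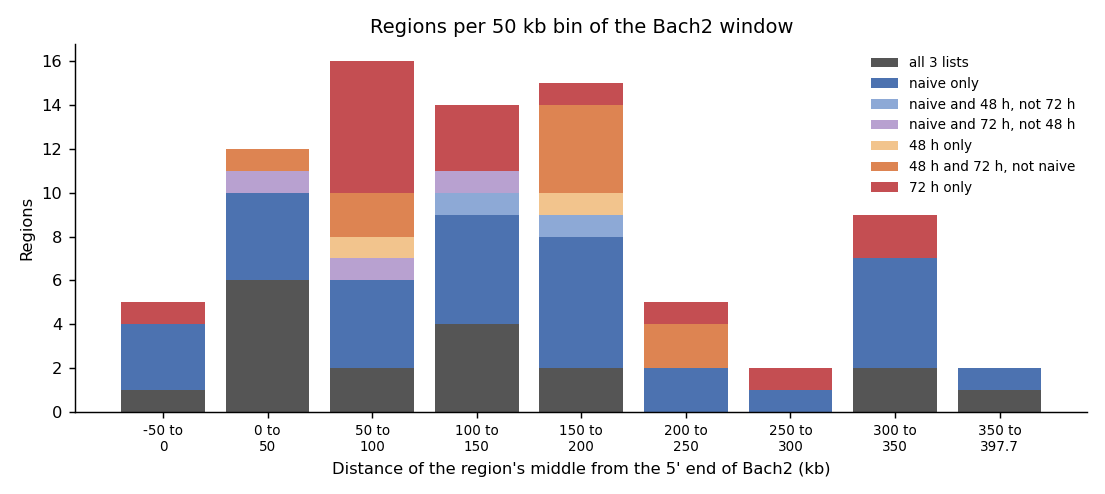
Bars count the regions in 50 kb bins along the Bach2 window by the distance of the region's middle from the 5′ end of the gene body (kb; the last bin ends at 397.7 kb), and colours give the presence class. The bins from 0 to 200 kb hold 12 to 16 regions each, and those from 200 to 300 kb hold 5 and 2.

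The 5′ end of Bach2 was marked in all groups. A region from 32238373 to 32239097 overlapped the gene's first base and was covered over 646 bp in Naive cells, 315 bp at 48 h and 594 bp at 72 h. Its score, the authors' own whole number per peak on a scale that no header states, was 124 at 48 h and 135 at 72 h. A second region followed from 32239234 to 32240046, covered over 813 bp in Naive cells, 403 bp at 48 h and 575 bp at 72 h. Both were shortest at 48 h and longest in Naive cells. The Naive list holds no score, and scores are compared here only with others of the same list.

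The highest scores of the window were found in regions of all 3 lists, and 2 of the top 3 lay outside the gene body. The region with the highest score, 249 at 48 h and 389 at 72 h, spanned 32614950 to 32615803 and overlapped the start of Casp8ap2, a gene of apoptosis and histone messenger RNA control, 28.8 kb past Bach2. It was covered over 686 bp in Naive cells, 723 bp at 48 h and 710 bp at 72 h, and its 72 h score was at or above 99.3% of the 72 h peaks. The widest member, 1088 bp from 32587589 to 32588676, lay just past the 3′ end of Bach2 and had scores of 200 at 48 h and 267 at 72 h. Gja10, a connexin gene, overlapped 1 region, a naive-only one of 100 bp. Without the regions of Casp8ap2 and Gja10 the window held 52 regions in Naive cells, 30 at 48 h and 44 at 72 h.

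Within the gene body the highest scores belonged to a region 167.5 kb from the 5′ end, from 32405543 to 32406281, with 185 at 48 h and 209 at 72 h. Its covered length was 105 bp in Naive cells, 579 bp at 48 h and 724 bp at 72 h, so it counts as shared although most of it was covered only in culture. At 72 h it was 6.90 times as long as in Naive cells, and 12 of the 20812 regions of all 3 lists (0.0577%), itself included, had a ratio as large. At 48 h the ratio was 5.51, reached by 18 regions. Both ratios rest on 1 Naive peak of 105 bp, near the shortest peak width of 100 bp in each list. The next scores in the gene body at 72 h were 151 for the region from 32257745 to 32258544 and 146 for the region from 32250361 to 32251357, with 86 and 68 at 48 h.

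Other shared regions shrank. The region from 32216828 to 32217307, before the 5′ end of the gene, was covered over 480 bp in Naive cells, 148 bp at 48 h and 107 bp at 72 h. The region from 32560317 to 32560754, inside the antisense long noncoding RNA gene Bach2os, was covered over 438 bp in Naive cells, 124 bp at 48 h and 100 bp at 72 h. Their ratios of 72 h to Naive length, 0.223 and 0.228, had 0.634% and 0.730% of the regions of all 3 lists at or below them. The 72 h lengths behind these ratios stood near or at the shortest peak width of that list, 100 bp. Over the 18 shared regions of the locus, 5 were longer at 72 h than in Naive cells (background 32.3%) and the median ratio was 0.867, beside 0.883 in the whole series. At 48 h, 7 were longer than in Naive cells (background 20.4%) with a median ratio of 0.751, beside 0.755. At 72 h, 10 were longer than at 48 h (background 70.8%) with a median ratio of 1.20 for 72 h over 48 h, beside 1.16. In 7 of the 18, a list had more than 1 peak, and their lengths were added.

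**Figure D5:**
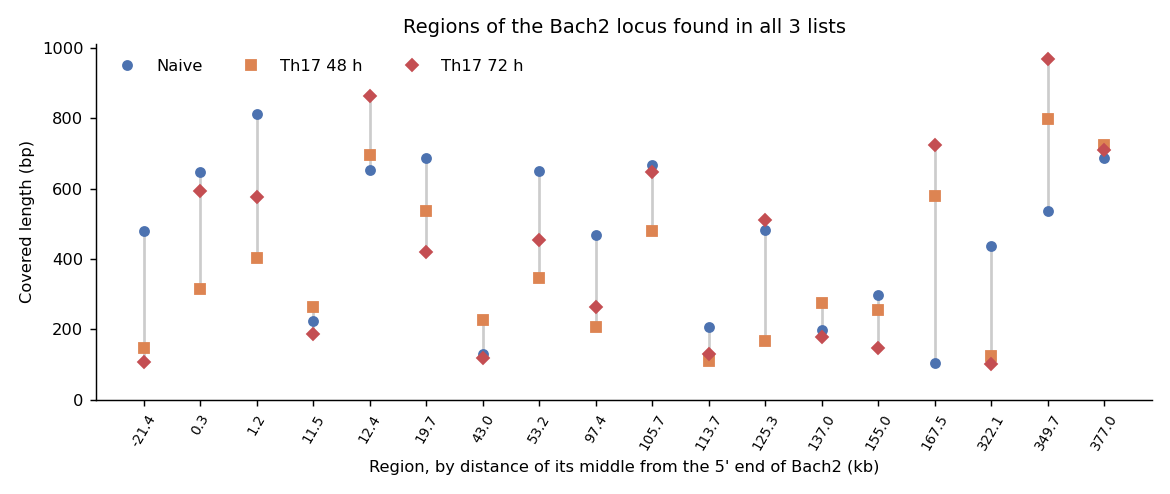
Points give the covered length (bp) of the 18 Bach2 regions found in all 3 lists, ordered by the distance of their middle from the 5′ end of the gene body (kb), with grey lines joining the groups. The region at 167.5 kb stands at 105 bp in Naive cells, 579 bp at 48 h and 724 bp at 72 h, and the regions at -21.35 and 322.12 kb have their longest coverage in Naive cells.

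The 31 naive-only regions were 100 to 541 bp wide with a median of 171 bp, narrower than the 625 bp median of the 18 shared regions. Over the whole series the medians were 193 bp and 604 bp. The widest spanned 541 bp from 32481544 to 32482084, and it was followed by regions of 367 bp from 32570908, inside Bach2os, 350 bp from 32463157, 312 bp from 32328609 and 302 bp from 32388656. The last of these belonged to a group of 3 naive-only regions within 1412 bp, beginning 149.1 kb into the gene, and another 3 naive-only regions stood within 1242 bp at 24.6 kb. The tabulated start of Bach2os overlapped no region but lay between naive-only regions, which ended 0.338 kb before its window and began 0.295 kb after it in chromosome order.

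The 9 regions of both culture times that Naive cells lacked had 72 h scores from 43 to 119 with a median of 87, beside 91 for this class in the whole series. The highest, 119 at 72 h and 102 at 48 h, spanned 558 bp from 32424310 to 32424867, in the first region group past the tabulated internal start. It was followed by the region from 32391244 to 32391607, with 113 at 72 h and 93 at 48 h, and the region from 32401559 to 32401813, with 106 at 72 h and 64 at 48 h. All 3 lay between 153.0 and 186.2 kb from the 5′ end. The 15 regions at 72 h only had lower scores, from 30 to 108 with a median of 41, beside 51 in the whole series. Their highest scores were 108 from 32320130 to 32320335, 86 from 32366330 to 32366472 and 65 from 32376114 to 32376655. Over the locus, 12 of 31 regions at 48 h and 20 of 45 at 72 h reached the median score of their list.

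The small classes each had few and mostly weak members. Of the 3 regions in the Naive and 72 h lists but not the 48 h list, the widest spanned 431 bp from 32280518 to 32280948 with a 72 h score of 73, and the others scored 53 and 36. The wider of the 2 regions lost only after 48 h spanned 439 bp from 32351221 to 32351659, with a 48 h score of 36 near the floor of the list. The wider region at 48 h only spanned 251 bp from 32425610 to 32425860 with a score of 88.

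Gained and lost regions often stood side by side. Joining regions of the window less than 2 kb apart gave 23 groups of 2 or more regions, which held 60 of the 80, and 19 of the 23 mixed presence classes. In 9 of them a naive-only region stood with a region absent from Naive cells. Of the 26 regions absent from Naive cells, 10 (38.5%) lay within 2 kb of a naive-only region, with a median distance of 2.58 kb, beside 9.26% and 26.4 kb in the whole series. The Bach2 window is dense in regions of every class, and how far density alone sets these distances was not tested. The group with the most classes lay 185.3 kb into the gene, where 5 regions of 4 classes stood within 3021 bp from 32423725 to 32426745. In order they were present in Naive cells and at 48 h, at 48 h and 72 h, in Naive cells only, at 48 h only, and at 48 h and 72 h.

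The genes whose mixture of the 7 presence classes was nearest to that of Bach2, among 1363 other gene windows with at least 20 regions, were Rps14, Crebl2, Lims1, 1700025G04Rik and Top1. Their summed absolute differences in class shares ran from 0.125 for Rps14 to 0.142 for Top1, over 3 lists. Top1, which encodes a DNA topoisomerase, had 7 gained and 10 lost regions at 72 h, and Rps14, a ribosomal protein gene, had 6 gained and 8 lost. The body of Rps14 is 3951 bp, so most of its window is flank. With flanks of 10 kb only 1700025G04Rik of the 5 stayed. These names depend on the minimum number of regions, since 2 of the 5 stayed with a minimum of 10 and 1 with a minimum of 30.

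Among relatives and dimer partners of BACH2, with windows of the same 50 kb flanks, more regions were lost than gained at 48 h. The 7 genes held 73 distinct regions in Naive cells, 53 at 48 h and 69 at 72 h. At 48 h 12 were gained and 32 lost, where the shares over the whole series were 38.8% gained and 55.9% lost. At 72 h 18 were gained and 22 lost, where both shares of the whole series were 49.2%. With flanks of 10 kb the order at 72 h turned round, with 9 gained and 7 lost. Losses outnumbered gains at 5 of 7 genes at 48 h (61.8% of all genes with a region) and at 4 of 7 at 72 h (43% of all). Bach1, the other BACH gene, had 2 gained and 12 lost at 48 h and 5 gained and 8 lost at 72 h. Mafg, which encodes a small Maf partner, had 1 gained and 8 lost at 48 h and 1 gained and 4 lost at 72 h. Nfe2l2, which encodes NRF2, a CNC-family activator, had 5 gained and 1 lost at both times.

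Genes that BACH2 is reported to restrain in mouse CD4 T cells had 31 gained and 41 lost regions at 48 h. These stood among 62 regions present at 48 h and 72 in Naive cells. The shares over the whole series were 38.8% gained and 55.9% lost. Losses outnumbered gains at 5 of the 10 genes (61.8% of all genes with a region) and gains outnumbered losses at 4 (21.3%). At 72 h the 10 genes had 56 gained among 89 present regions and 39 lost, where both shares of the whole series were 49.2%. Of the 10 genes 7 had more gained than lost, beside 40.5% of all genes. With flanks of 10 kb the order at 72 h turned round, with 16 gained and 21 lost. Prdm1, which encodes BLIMP-1, had 11 gained and 5 lost at 72 h. Il4 and Il13, neighbouring Th2 cytokine genes whose windows share regions, had 6 gained and 1 lost each, and Ahr, a ligand-sensing factor, had 6 gained and 2 lost. Gata3, the Th2 master factor, had 2 gained and 6 lost, and Ifng, the Th1 cytokine, had 5 gained and 6 lost.

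AP-1 factors, which share their DNA element with BACH2, had 28 gained and 27 lost regions at 48 h. At 72 h they had 39 gained and 18 lost. They held 71 regions in Naive cells, 72 at 48 h and 92 at 72 h. Over the whole series 38.8% of the 48 h regions were gained and 55.9% of the Naive regions lost. At 72 h both shares of the whole series were 49.2%. Gains outnumbered losses at 3 of 7 genes at 48 h (21.3% of all genes) and at 5 of 7 at 72 h (40.5%). Batf3, a BATF partner of JUN proteins, had 11 gained and 0 lost at 72 h, Fosl2 had 7 gained and 1 lost, and Jund had 3 gained and 5 lost. The members of these lists are chosen genes, and their counts are descriptions.

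Markers of the labelled cells were counted with 10 kb flanks. The 5 naive T cell markers had 57 regions in Naive cells, 23 at 48 h and 29 at 72 h, and the 5 Th17 markers had 14, 17 and 27, with Il17a and Il17f at 0 in Naive cells. Il23r, a Th17 cytokine receptor gene and the one with the most regions of the 5, went the other way, with 9 in Naive cells, 5 at 48 h and 7 at 72 h. The 3 T cell markers Cd3e, Cd4 and Cd28 had 19, 16 and 20. B cells also use Bach2, and their 5 markers had 12 regions in Naive cells, 15 at 48 h and 26 at 72 h, of which Ebf1 held 4, 8 and 17 and Ms4a1 none. The 5 myeloid markers had 13, 3 and 3, with Lyz2, Csf1r and Adgre1 at 0 throughout, and the 4 CD8 and NK cell markers had 4, 5 and 4, with Ncr1 at 0. The part of such cells in the Bach2 counts was not tested.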

How the data were processed

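The 3 deposited peak lists, 1 per condition, hold a chromosome, start, end and name. The 48 h and 72 h lists also hold the authors' deposited score, which ran from 30 upward. Bowtie2 2.3.4.1, SAMtools 1.9, MACS2 2.2.6, deepTools and the builds GRCm38 and mm10 are named per the submitters' processing notes. Calling threshold, filters, Tn5 shift and whether replicates were pooled remain not given in the sources used here. Each list is filed under replicate 1 of its condition. The Naive list held 53259 peaks, the 48 h list 40624 and the 72 h list 53926, and 1 line without values was left out. Read depth is unknown, so no count test was possible.

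Peaks were merged and counted with Python 3.11.15, pandas 2.3.3 and SciPy 1.17.1, and the counting was tested on simulated lists. Coordinates are 1-based. Covered length sums a list's peaks in a region. Genes and sequences came from RefSeq tables of GRCm38.p6, in which Bach2 has 1 start window. Sequence of other regions was not used here. Named genes were Bach2, its neighbours, the listed genes and the 5 nearest in class mixture. Foxp1, Lef1, Satb1, Itpr1, Dlg2 and Atxn1 were named after their values were seen. The regions named were those at the 5′ end of the gene, and those with the highest scores or largest widths of each class. The gap of 2 kb was set with the data in view. The members and lists were chosen with earlier results of these data known. Alternatives tried were other flanks, width, score and overlap rules, equal list sizes and leaving out the regions of neighbouring genes.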

Additional observations from a re-analysis of the deposited data

How the results depend on the processing

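No paired analysis was possible because each condition had 1 list and no test was run, and leaving out replicates was not run for the same reason. Of 135 values recomputed, 89 stayed within 1.5 times the value reported or inside its interval, and 46 moved. Gained minus lost at Bach2 changed sign in no alternative, though it came to 0 in 1 of them, and the order of gained and lost turned round at 72 h for 2 gene lists with flanks of 10 kb. With peaks at or above the median width, Bach2 had 21 regions in Naive cells, 18 at 48 h and 18 at 72 h. At 48 h against Naive cells 11 were lost (gained minus lost -3), at 72 h 8 were gained and 11 lost (-3), and at 72 h against 48 h 8 were gained and 8 lost (0), with 44.4% of the 48 h regions lost. With equal numbers of peaks, 19 were lost at 48 h (gained minus lost -6), the difference at 72 h against Naive cells was -5, and 12 were lost at 72 h against 48 h (difference 1, 38.7% lost). With 48 h and 72 h peaks at or above their median score, while the Naive list without scores stayed whole, 12 regions remained at 48 h and 20 at 72 h. Then 4 were gained at 48 h (gained minus lost -42, 85.2% lost), 9 at 72 h against Naive cells (-34, 79.6% lost), and at 72 h against 48 h 10 were gained and 2 lost (8). A stricter score in 2 lists alone removes gains and adds losses by construction. Shares of the whole series were not recomputed under any alternative, so whether Bach2 moved with the background is not known. With the gene body alone the difference at 72 h was -5, and with at least 50% of a region covered 79.6% of Naive regions were lost at 48 h.

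Of the 5 genes nearest to Bach2, 2 stayed with a minimum of 10 regions, 1 with 30 and 1 with flanks of 10 kb. With flanks of 10 kb, BACH relatives and partners had 6 gained and 11 lost at 48 h and 9 and 7 at 72 h (18 and 22 with 50 kb), restrained genes 9 and 22 at 48 h and 16 and 21 at 72 h (56 and 39 with 50 kb), and AP-1 factors 12 and 5 at 48 h and 15 and 2 at 72 h. The cause of these shifts was not tested beyond the smaller windows. Leaving out the regions of neighbouring genes, chosen after seeing the data, moved no count by over 1.5 times. Without reads, a weak site and an absent one cannot be told apart.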
